A study of Mus musculus with 21 samples.

Results

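A set of 10 genes that control or mark the skeletal muscle lineage were followed through a series of mouse mammary tumours. They were taken by symbol from a table of 24028 genes. All 10 were rows of the table: Myod1, Myf5, Myog and Myf6, Pax7, Mef2a, Mef2c and Mef2d, Chrna1 and Musk. Each was also set against Ckm, the creatine kinase of differentiated muscle, in the same tumour. The tumours had the genotype WAP-Cre/PIK3CA-H1047R: the promoter of a whey protein gene drives Cre in mammary epithelium, and PIK3CA-H1047R is a mutant catalytic subunit of the kinase PI3K-alpha. Of the 21 tumours, 7 were labelled as relapsed under BYL719 (alpelisib, an inhibitor of PI3K-alpha), 7 as stable under BYL719, and 7 came from animals given DMSO, the vehicle. All 3 groups share the genotype, and the labels used here give no age, dose or time of collection. The design text calls the treated groups responding and stable, while the sample labels say relapse and stable; the sample labels are followed. They do not say which tumours came from the same animal, so p-values measure the spread between these tumours.

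In developing and regenerating muscle, Pax7 marks the resting stem cells called satellite cells, which lie under the sheath of the fibre. Myf5 and Myod1 are basic helix-loop-helix factors that commit such cells to the muscle lineage, Myog drives their differentiation and fusion, and Myf6 is the family member that stays high in adult fibres. MEF2 proteins are partners of these factors on muscle promoters, and they also act in blood vessels, neurons and immune cells. Chrna1 encodes the alpha subunit of the acetylcholine receptor and Musk the receptor tyrosine kinase that clusters it; both are made by muscle fibres at the neuromuscular junction. Whole tumours were sequenced, so fewer muscle cells and less RNA per muscle cell cannot be told apart.

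The myogenic factors bind E-boxes, sites of the form CANNTG. RefSeq promoter windows of GRCm38.p6, from 250 bases before to 50 bases after a start site, were found for 8 of the 10 genes and for Ckm; Myod1 and Myf6 were not among them. The start is that of an annotated transcript, which for Musk lies inside the gene span given further on. The windows of the junction genes Chrna1 and Musk, of Myog and of Ckm are shown because these genes carry the comparisons described here. Chrna1 lies at chr2:73580289-73580588 on the minus strand, Musk at chr4:58285712-58286011, Myog at chr1:134289754-134290053 and Ckm at chr7:19410844-19411143, the last 3 on the plus strand. Capitals mark every CANNTG.
Chrna1: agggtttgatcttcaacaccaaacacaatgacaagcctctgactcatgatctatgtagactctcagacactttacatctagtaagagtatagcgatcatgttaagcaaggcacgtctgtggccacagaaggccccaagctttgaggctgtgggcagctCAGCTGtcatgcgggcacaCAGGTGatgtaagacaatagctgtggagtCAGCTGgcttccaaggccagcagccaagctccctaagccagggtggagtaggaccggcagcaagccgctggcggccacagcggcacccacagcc
Musk: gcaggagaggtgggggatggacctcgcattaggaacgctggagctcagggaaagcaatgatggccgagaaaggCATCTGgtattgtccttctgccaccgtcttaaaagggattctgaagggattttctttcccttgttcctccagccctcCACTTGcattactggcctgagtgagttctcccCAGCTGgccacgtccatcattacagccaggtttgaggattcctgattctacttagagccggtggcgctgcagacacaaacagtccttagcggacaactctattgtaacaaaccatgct
Myog: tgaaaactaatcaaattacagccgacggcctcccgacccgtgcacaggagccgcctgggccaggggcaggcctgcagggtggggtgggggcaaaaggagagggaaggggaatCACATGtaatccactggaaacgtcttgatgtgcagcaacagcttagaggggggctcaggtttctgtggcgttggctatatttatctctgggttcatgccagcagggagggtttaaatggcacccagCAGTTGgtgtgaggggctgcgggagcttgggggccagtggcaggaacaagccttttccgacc
Ckm: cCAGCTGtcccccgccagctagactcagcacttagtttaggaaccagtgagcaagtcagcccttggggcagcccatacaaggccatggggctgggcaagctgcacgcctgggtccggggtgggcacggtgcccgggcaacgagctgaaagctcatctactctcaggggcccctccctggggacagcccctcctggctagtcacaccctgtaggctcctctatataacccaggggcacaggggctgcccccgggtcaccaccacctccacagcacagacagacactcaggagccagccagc
Chrna1 held 3 such sites, with CAGCTG at -92 and -44 and CAGGTG at -73 from the start. Musk also held 3 and Myog 2, while Ckm had 1 CAGCTG near the far edge of its window. The CANNTG form reads the same on both strands and includes every CAGCTG. It occurred in 72.3% of the 32851 mouse promoter windows, CAGCTG in 16.3%, and at least 2 copies of CAGCTG in 1.9%. The consensus of MEF2 was searched on both strands as YTAWWWWTAR, where Y is C or T, W is A or T and R is A or G. It was in 3.19% of windows and in that of Mef2a alone among the 8 genes. Near matches were not counted: the Myog window holds ctatatttat, which misses this form at its last base alone. A match describes letters and not binding.

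Libraries held 17722622 to 21431465 counts in relapse, 13337848 to 24648463 in stable and 21043399 to 24873844 in vehicle tumours. Levels are CPM, counts scaled to a common library total; a count of 0 allows up to 3 counts, or 0.13 to 0.216 CPM depending on the library. Such limits cover counting error only. Before any comparison, 3 vehicle tumours stood apart: vehicle 2, 6 and 7 had 852.5, 808.5 and 400.4 CPM of Cnn1, a smooth muscle and myoepithelial gene, against at most 8.68 CPM in every other tumour. Values without these 3 tumours are given beside the calls they end. Relapse 4 stood apart from its group, with 0.399 CPM of Ckm where the other 6 relapse tumours had 70.8 to 344 CPM.

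Ckm itself had a lowest, median and highest level of 0.399, 108 and 344 CPM in relapse, 2.69, 20.3 and 143 CPM in stable, and 0, 0.412 and 12.3 CPM in vehicle tumours. Every group thus spanned a wide range, and relapse 4 lay among the vehicle tumours. Ckm was higher in relapse than in vehicle tumours by 5.32 ± 1.29 on the log2 scale (SE, 7 tumours in each group; Benjamini-Hochberg adjusted p = 0.0127 over 15792 genes, by the quasi-likelihood test of edgeR). Without vehicle 2, 6 and 7 the difference was 4.56 with an adjusted p of 0.0801. The call was also lost with counts summed by the code in the tumours' titles, of which vehicle tumours have 3 (5.28, adjusted p = 0.0563), and in a voom fit with that code taken as random (6.73, 0.113). Between stable and vehicle tumours it was 3.30 ± 1.18 with an adjusted p of 0.0632, which passed the threshold without relapse 4 (0.0435), vehicle 4 (0.0368) or vehicle 5 (0.0427).

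The genes of the stem and commitment stages were at the edge of detection. Pax7 (chr4:139737059-139833530) had 12 counts over the 7 relapse tumours, 10 over the stable and 3 over the vehicle tumours, 25 in all. Stable 5 held 8 of the 10 stable counts and had the highest level of any tumour, 0.447 CPM, and 11 of the 21 tumours had no count. Myf5 (chr10:107482908-107486927) had 6, 1 and 1 counts in relapse, stable and vehicle tumours, and 15 tumours had none. The ratio of scaled Pax7 counts was 4.21 for relapse over vehicle, with a 95% counting interval of 1.14 to 23.2, and 3.76 (0.968 to 21.3) for stable over vehicle. These intervals leave out the spread between tumours. Neither gene passed the filter on low counts, and in a fit without the filter the adjusted p for relapse against vehicle was 0.309 for Pax7 and 0.204 for Myf5. The defining gene of satellite cells was thus near 0 in all groups.

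Myod1 (chr7:46376474-46379092), the other commitment factor, had more reads. Its lowest, median and highest levels were 0, 0.535 and 1.65 CPM in relapse, 0, 0 and 2.79 CPM in stable, and 0, 0 and 0.131 CPM in vehicle tumours. Counts were present in 6 relapse tumours, and 5 of them lay above every vehicle tumour; of the 53 counts in stable tumours 50 came from stable 5 and the other 3 from stable 4. Scaled counts gave a ratio of 23.9 for relapse over vehicle (95% counting interval 9.04 to 89.7) and of 1.6 for relapse over stable (1.13 to 2.29). These intervals too leave out the spread between tumours. Myod1 too failed the filter, and without the filter the log2 difference between relapse and vehicle tumours was 4.26 ± 1.40 with an adjusted p of 0.0632. Between relapse and stable tumours that fit gave 0.57 ± 1.10 (edgeR, adjusted p = 0.96).

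**Figure D1:**
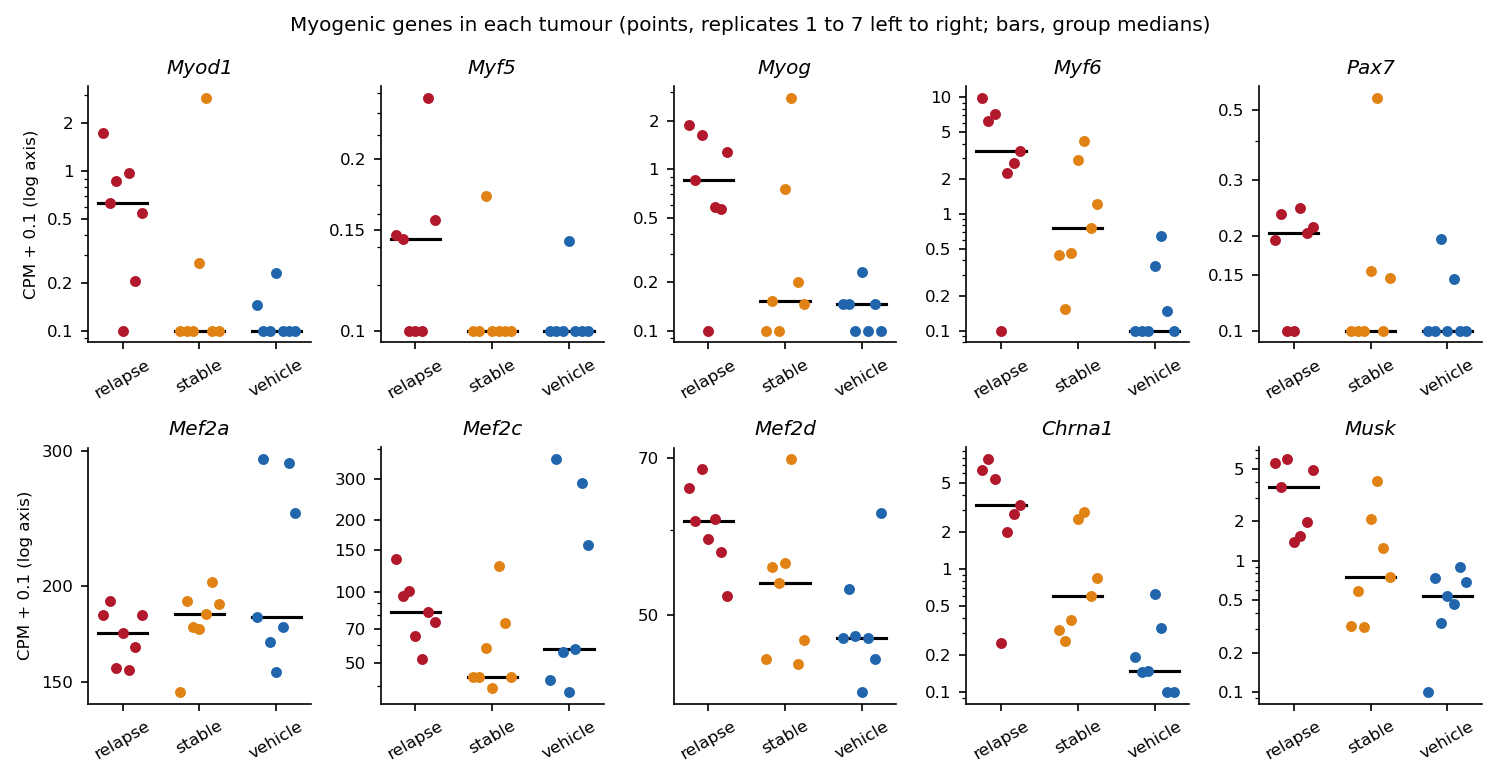
Level of each of the 10 genes in every tumour, as CPM plus 0.1 on a log axis that differs between panels; points are tumours, replicates 1 to 7 from left to right, and bars are group medians. Myf6 reaches 9.82 CPM and Chrna1 7.67 CPM in relapse tumours, stable 5 is the highest tumour for Myod1 (2.79 CPM) and Myog (2.68 CPM), and all 7 relapse tumours lie above all vehicle tumours for Musk.

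The later factors were higher in relapse than in vehicle tumours. Myog (chr1:134290004-134292548) had 0, 0.758 and 1.79 CPM as its lowest, median and highest level in relapse, 0, 0.0538 and 2.68 CPM in stable, and 0, 0.0457 and 0.131 CPM in vehicle tumours. All relapse tumours except relapse 4 exceeded the highest vehicle tumour, as did stable 4 and stable 5. The difference between relapse and vehicle tumours was 4.29 ± 1.16 on the log2 scale (edgeR, adjusted p = 0.0225). Myf6 (chr10:107492848-107494723), whose gene lies 5920 bases from Myf5, had the highest level per kilobase of the 4 factors. It had 0, 3.38 and 9.82 CPM in relapse, 0.0538, 0.654 and 4.14 CPM in stable, and 0, 0 and 0.55 CPM in vehicle tumours, and only relapse 4 of the relapse tumours overlapped the vehicle range. Myf6 was 5.09 ± 1.11 higher in relapse than in vehicle tumours (adjusted p = 0.0076, edgeR). Without vehicle 2, 6 and 7 both differences stayed large but missed the threshold, at 4.13 with an adjusted p of 0.129 for Myog and 4.42 with 0.0689 for Myf6. Summing counts by title code also ended the call of Myog (adjusted p = 0.0976), and a voom fit that took the title code as random that of Myf6 (0.0526), with values of 4.29 and 5.13.

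The junction genes followed. Chrna1 (chr2:73563281-73580338) had 0.15, 3.21 and 7.67 CPM in relapse, 0.161, 0.503 and 2.79 CPM in stable, and 0, 0.0473 and 0.523 CPM in vehicle tumours. Relapse 4 was again the exception, inside the vehicle range. Chrna1 rose by 4.77 ± 0.91 on the log2 scale in relapse against vehicle tumours (edgeR, adjusted p = 0.00412), and by 4.08 (0.0442) without vehicle 2, 6 and 7. Musk (chr4:58285729-58377848) had 1.3, 3.52 and 5.82 CPM in relapse, 0.216, 0.655 and 3.97 CPM in stable, and 0, 0.435 and 0.793 CPM in vehicle tumours. Of the 10 genes it was the one whose relapse and vehicle tumours did not overlap, which was so for 3.01% of all genes tested, and relapse 4 was included at 1.3 CPM. Musk rose by 2.97 ± 0.68 in relapse against vehicle tumours (edgeR, adjusted p = 0.00951), and by 3.71 (0.0388) without vehicle 2, 6 and 7. It had counts in 6 of the 7 vehicle tumours.

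Across the 10 genes, 4 of the 7 that passed the filter were called higher in relapse than in vehicle tumours and none lower, beside 5.42% of all genes higher and 5.8% lower. Myog, Myf6 and Chrna1 had most of their counts in the tumours where they were high and passed the filter through them, so this count is no support of its own. All 4 calls remained when each of the 21 tumours was left out in turn, with adjusted p-values up to 0.046 for Myog and up to 0.0224 for Musk. Against vehicle, stable tumours had 2 of the 7 called higher, beside 6.9% of all genes higher and 8.16% lower. Chrna1 was 2.84 ± 0.88 higher on the log2 scale (edgeR, adjusted p = 0.0349) and Myf6 3.38 ± 1.07 higher (0.039). Neither call was firm: that of Chrna1 was lost without stable 4 or 5 or without vehicle 1, 2, 3, 6 or 7 (adjusted p 0.0507 to 0.0746), and that of Myf6 without the same tumours or stable 7 (0.0518 to 0.0789). Without vehicle 2, 6 and 7 together the values were 2.16 (0.198) and 2.70 (0.205). Myog differed by 3.48 ± 1.18 with an adjusted p of 0.0504, and crossed the threshold without relapse 4, stable 1, 2, 3 or 7 or vehicle 4 (0.0274 to 0.0491). For Musk the value was 1.49 ± 0.66 with an adjusted p of 0.13. The comparisons with vehicle share the 7 vehicle tumours.

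Between relapse and stable tumours, 0% of the 15792 genes were called by edgeR; 751 genes had an unadjusted p under 0.05, and DESeq2's Wald test called 6. The log2 differences were 1.93 for Chrna1 (95% interval 0.31 to 3.55), 1.47 for Musk (0.15 to 2.80), 1.71 for Myf6 (-0.20 to 3.63) and 0.81 for Myog (-1.10 to 2.72), each with an adjusted p of 0.99. These intervals hold differences from near 0 to over 3 for Chrna1 and Myf6, so equality of the treated groups was not shown. For none of the 10 genes did relapse and stable tumours fail to overlap, which they did for 0.0823% of genes tested, nor did stable and vehicle tumours, as for 2.87%.

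The MEF2 genes behaved otherwise. They were measured in every tumour at much higher levels. Per kilobase of the gene length given in the table, mean relapse levels were 27.8 CPM for Mef2a, 17.9 for Mef2d and 11.4 for Mef2c, against 3.57 for Myf6, 0.943 for Musk, 0.9 for Chrna1, 0.599 for Myog and 0.337 for Myod1. Musk and Chrna1 were not separable by their spread (SD 0.528 and 0.612, n = 7), nor were Myog and Myod1 (SD 0.432 and 0.297). Myf5 and Pax7 came last, at 0.0208 and 0.0197 CPM per kilobase.

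None of the MEF2 genes was called in any comparison of groups. Mef2a (chr7:67231163-67376456) had 155, 174 and 191 CPM as lowest, median and highest level in relapse, 145, 183 and 203 CPM in stable, and 154, 182 and 293 CPM in vehicle tumours. The vehicle tumours above the range of the others were vehicle 2, 6 and 7, at 293, 290 and 249 CPM. Mef2c (chr13:83504017-83667079) showed the same split, with 52.2, 82.4 and 137 CPM in relapse, 39.3, 43.8 and 128 CPM in stable, and 37.7, 57.6 and 363 CPM in vehicle tumours. Vehicle 2, 6 and 7 had 363, 287 and 157 CPM of Mef2c, and the other 4 vehicle tumours at most 57.6. Mef2c was 0.72 ± 0.46 lower on the log2 scale in relapse (-0.72, edgeR, adjusted p = 0.329) and 1.22 lower in stable than in vehicle tumours (-1.22, 0.0805), the second passing the threshold without stable 5 (0.039), vehicle 1 (0.0427) or vehicle 4 (0.0396). Without vehicle 2, 6 and 7 the sign turned, to 0.85 (0.128) in relapse and 0.36 (0.52) in stable tumours; for Mef2a, -0.32 (0.123) and -0.26 (0.195) became 0.03 (0.897) and 0.09 (0.557).

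Mef2d (chr3:88141941-88172091) had 52.0, 61.0 and 68.3 CPM in relapse, 44.9, 53.5 and 69.8 CPM in stable, and 42.2, 47.5 and 62.1 CPM in vehicle tumours. All 7 relapse tumours were above the vehicle median. Its log2 difference from vehicle was 0.30 ± 0.11 in relapse tumours (edgeR, adjusted p = 0.0712), past the threshold without stable 1 (0.0475), stable 5 (0.04) or vehicle 7 (0.0328), and 0.11 ± 0.11 in stable tumours (0.51). Mef2d overlaps the noncoding gene 1700113A16Rik, which had 656 counts in all against 22991 for Mef2d, and whether the counting used strand is not stated in the labels.

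**Figure D2:**
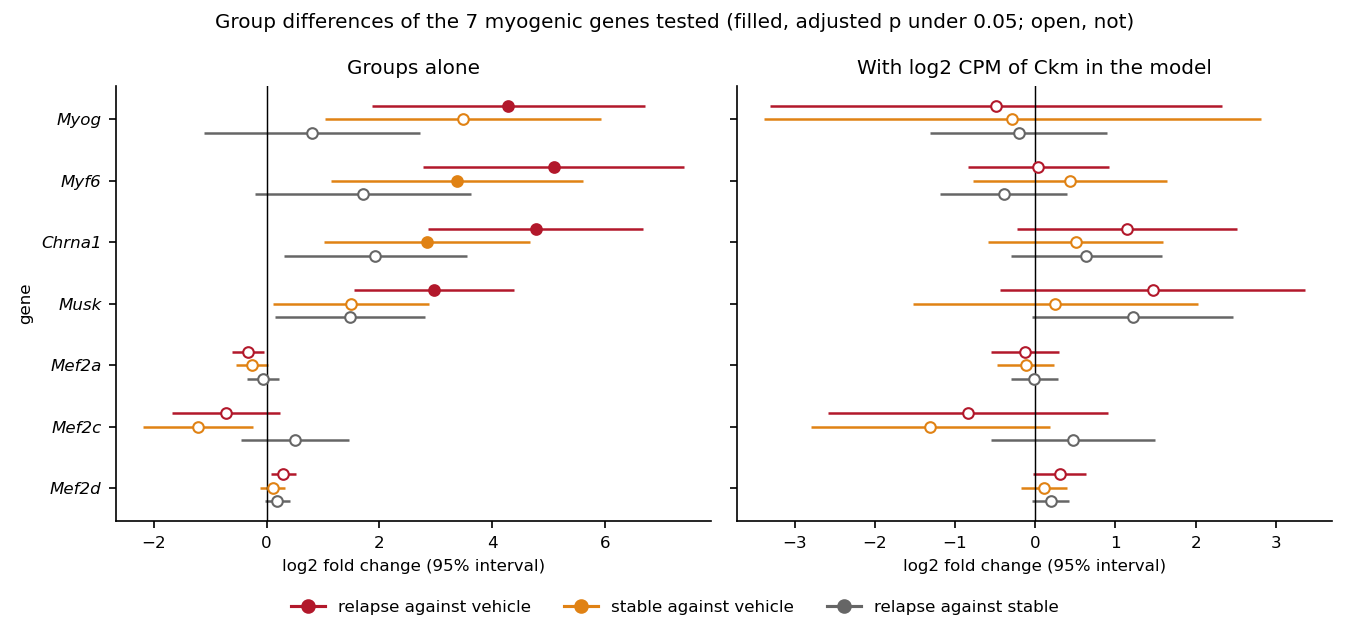
Log2 fold changes with 95% intervals of the 7 genes that passed the filter, for each pair of groups; filled points have an adjusted p under 0.05. In the left panel, from groups alone, Chrna1 reaches 4.77 and Myf6 5.09 for relapse against vehicle; in the right panel, with Ckm in the model, no point is filled.

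Each gene was then read against Ckm in the same tumour. In a fit that held the group and the log2 level of Ckm, the slope is the log2 change of a gene per doubling of Ckm within groups. Over all genes 0.646% had a slope called at an adjusted p under 0.05, every one of them positive. Myf6 had a slope of 0.94 ± 0.10 (95% interval 0.73 to 1.14, edgeR, adjusted p = 3.36e-06), an interval that holds 1, the value of strict proportion. Chrna1 had 0.63 ± 0.08 (0.46 to 0.80, adjusted p = 5.16e-05), below proportion. Myog had 0.77 ± 0.16 (0.44 to 1.10, 0.0150), a call lost without relapse 4 (0.136) or stable 5 (0.324). It was also lost with the replicate block (0.538), the title digit block (0.131), counts summed by title code (0.0761) and voom (0.101). Myod1, in the fit without the filter, had 1.08 ± 0.20 (0.68 to 1.49, adjusted p = 0.00444).

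Musk and the MEF2 genes were not called against Ckm. The slope of Musk was 0.21 ± 0.10 (-0.01 to 0.42, edgeR, adjusted p = 0.966). With all tumours in the fit, this interval lies under those of Chrna1 and Myf6. Without the vehicle tumours that stood apart in Cnn1, the slope of Musk was 0.30 ± 0.09 (edgeR, adjusted p = 0.352). Chrna1 then had 0.61 ± 0.08 and Myf6 0.98 ± 0.11. The intervals of Musk and Chrna1 overlap in that fit, so their separation depends on the vehicle tumours left out. That of Myf6 stayed above Musk. The difference between slopes was not tested. With all tumours, the slopes of Mef2a, Mef2c and Mef2d were -0.03, 0.02 and -0.0009. Relapse 4 shows the contrast in single values: at 0.399 CPM of Ckm it had 0 CPM of Myf6, Myog and Myod1 and 0.15 CPM of Chrna1, but 1.3 CPM of Musk.

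With Ckm held equal, none of the 7 genes tested was called between any groups, beside 0.127% of all genes for relapse against vehicle, 1.37% for stable against vehicle (1.01% higher) and 0% for relapse against stable. For relapse against vehicle the log2 difference of Myf6 was 0.04 (95% interval -0.84 to 0.92), that of Chrna1 1.14 (-0.23 to 2.52), that of Myog -0.49 (-3.31 to 2.33) and that of Musk 1.46 (-0.44 to 3.36). The intervals of Chrna1, Musk and Myog are wide enough to hold a difference of 2 on the log2 scale, and those values do not show equality. Ckm and the group move together, so this fit compares tumours at levels of Ckm that few tumours of both groups share. Without vehicle 2, 6 and 7 the difference of Musk at equal Ckm was 2.32 ± 0.78 (edgeR, adjusted p = 0.308). Those of Chrna1, Myf6 and Myog were then 1.07, 0.03 and -0.26.

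**Figure D3:**
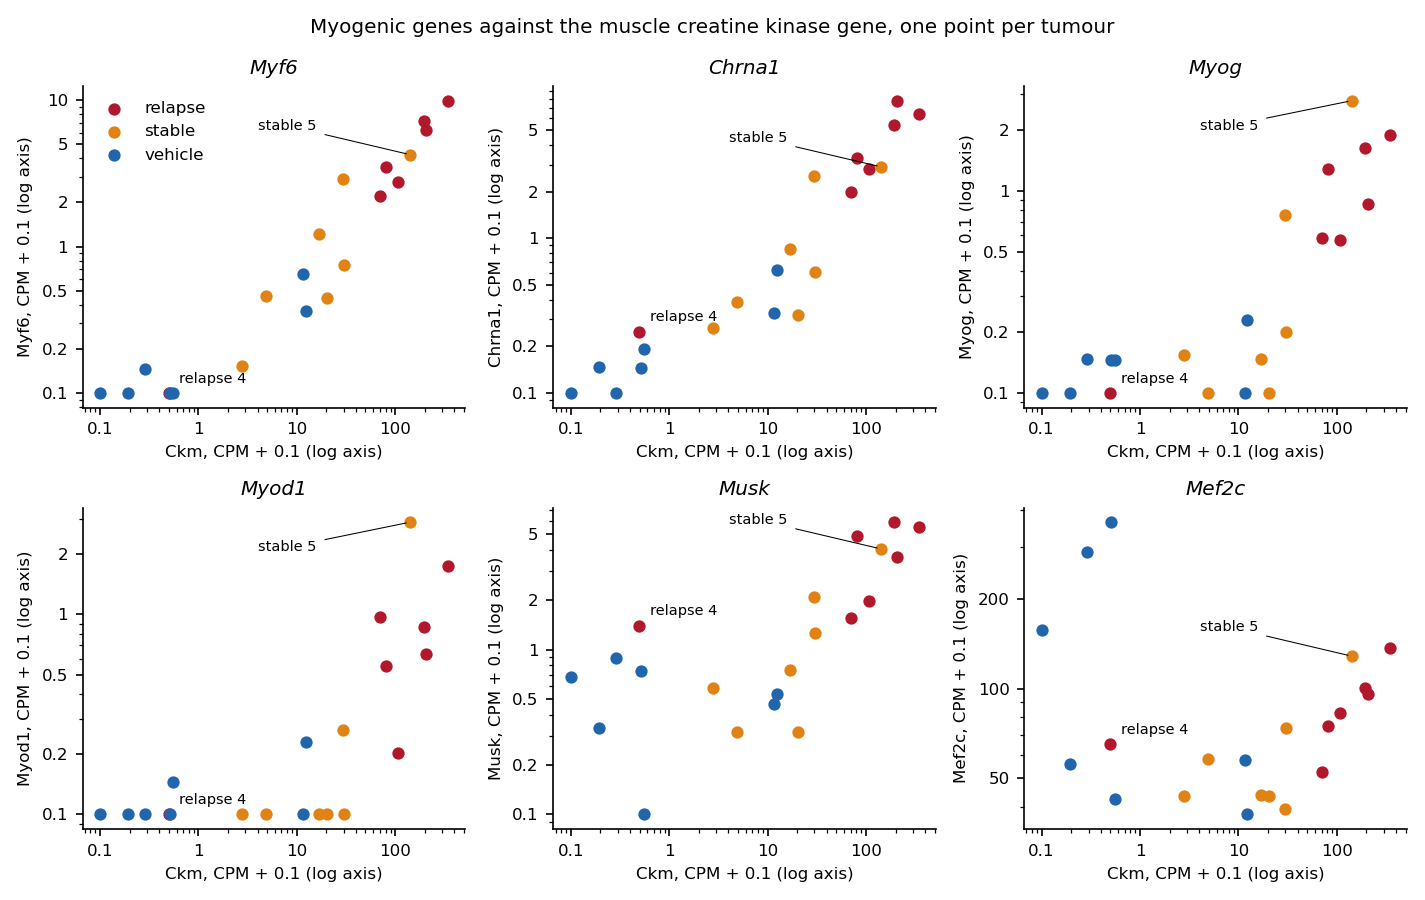
CPM plus 0.1 of 6 genes against that of Ckm, both on log axes, with 1 point per tumour coloured by group. Myf6 and Chrna1 climb with Ckm above the 2.69 CPM of Ckm in stable 2. At lower Ckm they reach at most 0.0467 and 0.15 CPM, too few counts to show a trend. Relapse 4 lies low on both axes for Myf6, Chrna1, Myog and Myod1, but has 1.3 CPM of Musk and 64.95 CPM of Mef2c. Stable 5 is highest for Myod1 and Myog, and for Mef2c the 3 highest points are vehicle tumours with little Ckm.

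As counts per 1000 Ckm counts, the genes can be compared between tumours with different amounts of Ckm. The 15 tumours with at least 50 Ckm counts, a minimum chosen after the values were seen, were 6 relapse tumours, all 7 stable tumours and vehicle 4 and 5. Myf6 lay between 24.5 and 41.8 in relapse (median 29.9), between 17.2 and 95.3 in stable (28.9), and at 21.3 and 47.6 in the 2 vehicle tumours. Over a range of Ckm from 50 to 7328 counts, its ratio thus varied 5.54-fold. The high end was stable 4 at 95.3, with an exact 95% binomial interval of 70.1 to 127, above the 41.8 of the highest relapse tumour. Chrna1 showed the same tumour on top, at 82.2 (59.0 to 112) against 18.3 to 39.7 in relapse tumours.

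Myod1 and Myog had another order. Stable 5 had 19.6 Myod1 counts per 1000 Ckm counts (14.5 to 25.9), above relapse 1 with 4.78 (3.32 to 6.65) although relapse 1 had more Ckm. The other stable tumours had none except stable 4, at 5.61 (1.15 to 16.5). Among relapse tumours Myod1 ran from 0.962 in relapse 6 to 12.3 (7.27 to 19.5) in relapse 5, so that tumours of 1 group differed beyond counting error. Myog ran from 3.68 to 14.6 in relapse tumours and reached 18.8 (13.8 to 25) in stable 5 and 22.4 (11.5 to 39.5) in stable 4. Musk ran from 15.7 to 59.2 in relapse and from 10.7 to 180 in stable tumours, a 16.8-fold range over the 15 tumours. Its extreme value was that of stable 2, which had 50 Ckm counts.

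**Figure D4:**
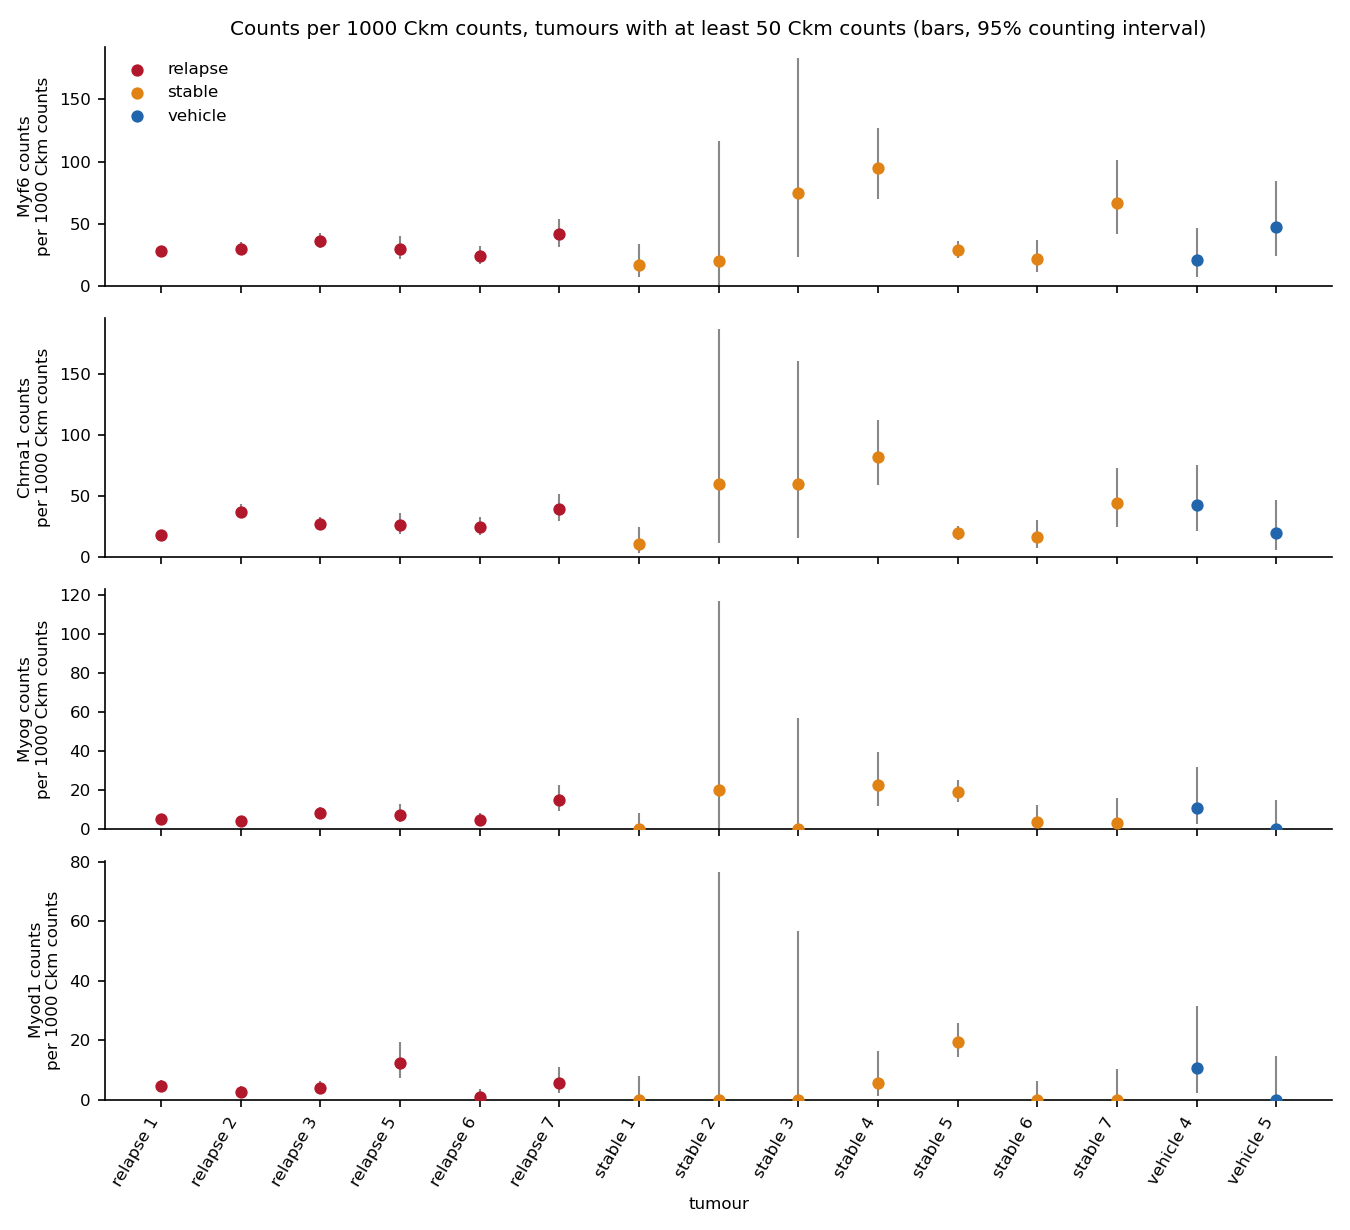
Counts of Myf6, Chrna1, Myog and Myod1 per 1000 Ckm counts in the 15 tumours with at least 50 Ckm counts; bars are exact 95% binomial intervals. Myf6 and Chrna1 are highest in stable 4 (95.3 and 82.2), and Myod1 in stable 5 (19.6).

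The genes whose pattern was most like each of these, by Pearson's correlation of log2 CPM over the 21 tumours, are given as a description; all values of a tumour share its library. For Myf6 they were Neb (r = 0.982), which encodes the giant thin filament protein nebulin, Mypn, Lmod3 and Myot, all sarcomere genes. For Chrna1 they were the muscle intermediate filament gene Des (0.979), Klhl41, Myh13, Trim54 and Myf6 itself (0.969). Myog was closest to Mir133b (0.948), Arpp21, Cacng1, Asb14 and Myadml2. Musk was closest to Hspb7 (0.938), a small heat shock protein gene of striated muscle, Fhl1, Myom1, Myl4 and Angptl1. The leading genes of Mef2c were Synm (0.961), Synpo2, Zeb1, Map1a and Gypc, and those of Mef2a Pja2 (0.927), Fkbp14, Sdc2 and the smooth muscle genes Mylk and Tagln. For Mef2d the values were lower, from 0.829 for Phf24 to 0.785 for Wdcp. Rank correlations (Spearman's rho) with Mef2a were 0.743 for Pja2, 0.682 for Fkbp14, 0.804 for Sdc2, 0.54 for Mylk and 0.647 for Tagln, all below their r. Vehicle 2, 6 and 7 had 3211, 4268 and 2243 CPM of Mylk, and every other tumour at most 116.2 CPM. With Ckm, r was 0.951 for Myf6, 0.934 for Chrna1, 0.795 for Myog, 0.69 for Musk, 0.381 for Mef2d, -0.172 for Mef2c and -0.519 for Mef2a.

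Lists of related genes place the 10 genes among others of the lineage; each count stands beside that of all genes tested, 5.42% higher and 5.8% lower in relapse than in vehicle tumours, with a median log2 difference of -0.02. The shares were 1.95% higher and 1.32% lower without vehicle 2, 6 and 7, with a median of 0.02. Of 24 mature fibre genes 23 were called higher in relapse tumours and the median was 4.94; with vehicle 2, 6 and 7 left out, 2 were called and the median was 4.34. Mylpf, the fast regulatory light chain, was 5.05 ± 1.08 higher (edgeR, adjusted p = 0.00719), and without those 3 tumours 4.35 with an adjusted p of 0.0588. In stable against vehicle tumours 13 of the 24 were called higher, beside 6.9% of all genes, and none without vehicle 2, 6 and 7, beside 2.83%. Among 15 MEF2 target and cofactor genes 9 were called higher, with a median of 3.94, and 1 without vehicle 2, 6 and 7; Hrc, a calcium-binding protein of the sarcoplasmic reticulum, rose by 4.73 ± 0.83 (0.00256). The MEF2 genes themselves, as given above, were not called.

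Satellite cell and fusion genes had medians nearer 0. Of 14 satellite cell genes tested, Spry1 and Peg3 were called higher and Vcam1 lower in relapse than in vehicle tumours, with a median of 0.26. Vcam1, an adhesion molecule also made by vessels and stroma, fell by 1.68 ± 0.40 (-1.68, edgeR, adjusted p = 0.011) and was highest in vehicle 2, at 410 CPM; without vehicle 2, 6 and 7 the value was -0.45 (0.378) and none of the 14 was called, with a median of 0.57. The calls of Spry1 and Peg3 were lost on leaving out any of 8 and of 13 single tumours, with adjusted p-values of up to 0.0773 and 0.0939. Cdh15, the M-cadherin of satellite cells and myoblasts, had 0.249 to 1.47 CPM in relapse and 0.0457 to 1.35 CPM in vehicle tumours (log2 difference 0.69 ± 0.64, adjusted p = 0.528). Of 11 fusion genes tested none was called higher and 2, Adgrb1 and Neo1, were called lower, with a median of -0.23. Those 2 calls were lost on leaving out any of 5 and of 13 single tumours (adjusted p up to 0.0623 and 0.109), and without vehicle 2, 6 and 7 none of 12 was called lower and 1 higher, with a median of 0.41. Tmem8c, which encodes the fusion protein myomaker, had 26 counts in relapse, 9 in stable and 4 in vehicle tumours and was not tested. Gm7325, also on the fusion list, had 9, 0 and 0 counts and was not tested either. The filter kept 11 of the 16 fusion genes measured, so the counts of calls cover those alone. In the fit without the filter 5 fusion genes were called, counting both directions.

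Other muscle transcription factors and cofactors included a called gene with no called slope on Ckm. Of 20 tested, 7 were called higher and 1 lower in relapse than in vehicle tumours, and 4 and 0 without vehicle 2, 6 and 7. Ankrd1, a stretch-responsive cofactor gene, had 7.06, 17.4 and 33.1 CPM as lowest, median and highest level in relapse, 5.31, 8.12 and 16.7 CPM in stable, and 0.915, 3.11 and 4.67 CPM in vehicle tumours. Both treated groups lay above all vehicle tumours, and relapse 4 had 25.8 CPM. Ankrd1 rose by 2.86 ± 0.41 in relapse (edgeR, adjusted p = 0.000653) and by 1.72 ± 0.39 in stable tumours (0.00828) against vehicle, and its slope on Ckm, 0.05, was not called (0.967). Smyd1, a muscle methyltransferase gene, rose by 4.77 ± 0.94 (0.00497), and its slope of 0.70 was called (1.40e-06).

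Among 15 genes tested for inhibitors of the myogenic factors, Id1 was called higher and Hes1 lower in relapse than in vehicle tumours, and each call was lost on leaving out any of 5 single tumours (adjusted p up to 0.0746 and 0.0579). Id1 differed by 0.69 (0.22) and Hes1 by -0.27 (0.304) without vehicle 2, 6 and 7, against 1.01 and -0.50 with them, and counts summed by title code also ended both calls (0.109 and 0.132). Of 13 other junction genes 1 was called, Chrnd, the delta subunit of the acetylcholine receptor. It had 0, 0.802 and 1.5 CPM in relapse, 0, 0.0719 and 1.06 CPM in stable, and 0, 0 and 0.138 CPM in vehicle tumours, and rose by 4.13 ± 1.09 in relapse tumours (edgeR, adjusted p = 0.0198; 3.44 with 0.135 without vehicle 2, 6 and 7, and 4.2 with 0.0843 for summed counts). Its slope on Ckm was 0.82 (0.00307). Chrng, the fetal gamma subunit, had 47 counts in relapse, 18 in stable and 2 in vehicle tumours and was not tested. Lrp4, which encodes the partner of MuSK, had a difference of 0.76 ± 0.29 with an adjusted p of 0.0954, and of 0.33 without relapse 2, which had 260.7 CPM.

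Of 9 embryonic and regenerating fibre genes 5 were called higher in relapse than in vehicle tumours, with a median of 1.70, and 1 without vehicle 2, 6 and 7. The perinatal myosin gene Myh8 had 1.5, 132 and 402 CPM in relapse, 3.71, 24.1 and 313 CPM in stable, and 0.213, 0.747 and 16.2 CPM in vehicle tumours. It followed Ckm with a slope of 0.90 (edgeR, adjusted p = 4.42e-11), and its difference in relapse tumours was 5.18 ± 1.22 (0.011; 4.48 with 0.0852 without vehicle 2, 6 and 7). Summed counts (5.12, 0.0549) and voom (6, 0.0576) ended that call too. The embryonic myosin gene Myh3 was lower in level, with a median of 11.5 CPM in relapse, 0.842 in stable and 0.137 CPM in vehicle tumours, and differed by 4.02 ± 1.07 between relapse and vehicle (0.0206; 3.31 with 0.125 without those 3 tumours, 3.88 with 0.0876 for summed counts and 4.74 with 0.0646 for voom). Reads of the similar myosin genes may have been split between them, so their single values are uncertain. Igf2, a growth factor gene of fetal and regenerating tissue that is not confined to muscle, rose by 2.93 ± 0.52 in relapse tumours (0.00262) with a slope of -0.11 (0.966). Of 12 denervation and atrophy genes 4 were called higher, and 2 without vehicle 2, 6 and 7. Trim63, a ubiquitin ligase gene of muscle wasting, rose by 4.39 ± 1.04 (0.0111; slope 0.71), and differed by 4.07 with an adjusted p of 0.0887 without those 3 tumours, 4.49 with 0.0594 for summed counts and 4.16 with 0.16 for voom.

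Markers of other cells moved beside some of these genes. Of 12 smooth muscle and myoepithelial markers 7 were called lower and 1, Des, higher in relapse than in vehicle tumours; their summed level was 1180 to 2270 CPM in relapse, 327 to 1500 CPM in stable and 1270 to 23700 CPM in vehicle tumours, and vehicle 2, 6 and 7 had the 3 highest sums. Without those tumours 1 was called higher and none lower. Over all tumours r with Cnn1 was 0.864 for Mef2a and 0.85 for Mef2c. Of 12 endothelial markers none was called, with sums of 211 to 391 CPM in relapse, 133 to 355 CPM in stable and 155 to 543 CPM in vehicle tumours; r with the endothelial gene Pecam1 was 0.841 for Mef2c and 0.545 for Musk. Of 12 macrophage markers none was called (sums 1370 to 2840, 1010 to 3090 and 843 to 3040 CPM in relapse, stable and vehicle tumours), and none of 2 B cell (19.5 to 44.0, 23.2 to 55.0 and 17.0 to 59.1 CPM) or 8 Schwann cell markers tested (180 to 281, 183 to 332 and 134 to 475 CPM). Of 10 fibroblast markers 3 were called higher in relapse tumours, with sums of 1790 to 7350 CPM in relapse, 1610 to 7760 CPM in stable and 1810 to 8540 CPM in vehicle tumours. The endothelial, macrophage, B cell, smooth muscle, Schwann cell and fibroblast markers each had counts in every group. Of 3 cardiac markers tested Myh6, a heart myosin gene, was called higher (4.63 ± 1.05, edgeR, adjusted p = 0.00912), at 0.0998, 27.5 and 52.3 CPM in relapse, 0, 0.112 and 0.592 CPM in stable, and 0, 0.653 and 3.25 CPM in vehicle tumours. That call was lost without vehicle 2, 6 and 7 (4.82, 0.0627), with counts summed by title code (4.83, 0.0682) and with voom (4.57, 0.121). The 8 cardiac markers summed to 2.99 to 58.7 CPM in relapse, 2.08 to 5.42 CPM in stable and 1 to 6.28 CPM in vehicle tumours; Nppa had no count in relapse or stable tumours, Nkx2-5 none in stable and Gata4 none in vehicle tumours. The mature fibre genes summed to 299 to 30800 CPM in relapse, 512 to 20800 CPM in stable and 268 to 1450 CPM in vehicle tumours. The part of these cells in the differences of Myog, Myf6, Chrna1, Musk and the MEF2 genes was not tested.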

How the data were processed

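Polyadenylated RNA of 21 frozen mammary tumours was sequenced as single-end reads of stranded libraries, per the labels' protocols. The submitters' processing notes name STAR 2.5.2a, SAMtools 1.3.1, Picard 2.9.2, edgeR and the build mm10, without their roles. The strand setting and the handling of reads matching several genes are not stated there. The values the authors deposited are raw whole-number counts for each gene, and positions are from RefSeq on GRCm38.p6. In 10202 of 24028 rows an extra leading cell was present, so rows were read from their last 25 cells.

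Counts were filtered with filterByExpr by group (15792 genes kept, 7 of the 10), given TMM factors, and fitted over all 21 tumours by quasi-likelihood in edgeR 4.0.16 under R 4.3.3. P-values of the F test were adjusted by Benjamini-Hochberg over the genes tested; calls are at an adjusted p under 0.05. A second fit added log2 CPM of Ckm (prior count 2) as a covariate. The methods were tested on simulated data. The 10 genes, the lists and the alternatives were chosen with earlier results of these data known. Named beside the 10 genes and Ckm are up to 4 tested genes of lowest p from each list, Myh3, Myh8, Chrng, Cdh15, Tmem8c and Chrnd, and the 5 genes most like each gene tested, leaving out predicted genes; some genes that meet this rule are not reported here. No tumour was a repeat of another: within groups, chi-square divided by its degrees of freedom was at least 17.6. Codes in the titles, whose meaning is not given, took 7 values in relapse, 4 in stable and 3 in vehicle tumours; 2 were shared by relapse and stable tumours, and the pairing by replicate number was checked. Alternatives were DESeq2 1.42.0, other scaling factors, no filter, 2 groups only, blocks by replicate number or title digit, counts summed by title code, voom in limma 3.58.1 with that code as random, leaving out each tumour, and leaving out vehicle 2, 6 and 7; list counts without those tumours were added after the data were seen.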

Additional observations from a re-analysis of the deposited data

Results flagged for a closer look

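Of 43 sets of values checked, each over the 6 or 7 tumours of a group, 13 had a highest tumour whose gap to the next exceeded Dixon's 95% limit. A rate of about 1 set in 20 by chance holds for normally distributed values only. Many of these values are 0 or skewed, so the 13 cannot be set against that rate. A set with a single tumour above 0, as Myf5 in stable and in vehicle tumours, is flagged whatever its level. Stable 5 had 5 of these among the levels: 2.79 CPM of Myod1, 2.68 CPM of Myog, 0.447 CPM of Pax7, 128 CPM of Mef2c and 143 CPM of Ckm. It was also the highest stable tumour for Myod1 per 1000 Ckm counts, at 19.6. Vehicle 4 was the highest vehicle tumour for Myod1 (0.131 CPM), Myog (0.131 CPM) and Myf5 (0.0435 CPM). Myf5 was further set apart in relapse 6 (0.156 CPM) and stable 3 (0.0718 CPM). These Myf5 and vehicle values rest on 3 counts or fewer. Musk per 1000 Ckm counts stood apart in relapse 7, at 59.2, and in stable 2, at 180, the second with 50 Ckm counts.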

How the results depend on the processing

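The 4 calls in relapse against vehicle tumours (Myog, Myf6, Chrna1, Musk) were the same 4, or those and Mef2d, with other scaling factors, DESeq2, no filter, either block and each single tumour left out. With only the 2 groups compared 3 were called, and Myog was not among the genes tested. With summed counts 3 were called, without Myog, and with voom 3, without Myf6. Without vehicle 2, 6 and 7 only 2 were called, Chrna1 and Musk, with 527 of all genes (main 1772). Genes called there were 987 with the replicate block, 1086 with the title digit block and 955 with counts summed per title code. In stable against vehicle tumours the main counts were 2 of the genes and 2378 overall. Of the genes, 4 were called by DESeq2 and 0 with the replicate block, with the title digit block, with summed counts, with voom and without vehicle 2, 6 and 7. With only the 2 groups compared 0 were called. Myog, Myf6 and Chrna1 were not among the genes tested in that fit, so its 0 says nothing of them. Overall counts there were 964 with only the 2 groups, 1251 with the replicate block, 820 with the title digit block, 592 with summed counts and 847 without vehicle 2, 6 and 7. DESeq2 called 6 genes between relapse and stable tumours, and 6 at equal Ckm.

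Replicate numbers did not pair the tumours: correlations of same-numbered tumours ran from -0.24 to 0.118 in relapse and vehicle, from -0.25 to 0.358 in stable and vehicle, and from -0.258 to 0.184 in relapse and stable tumours, with 1 of 7 over 0.1 each time.

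At equal Ckm the counts for relapse against vehicle (main 20) were 146 with DESeq2, 0 with no filter, 9 with only the 2 groups, 1 with the replicate block, 0 with the title digit block, 36 with summed counts, 3 with voom and 0 without vehicle 2, 6 and 7. For stable against vehicle (main 216) they were 821 with DESeq2, 122 with no filter, 12 with only the 2 groups, 75 with the replicate block and 84 with summed counts.

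Most values that changed sign were near 0 after the change, but some were large before it. In relapse against vehicle tumours the main fit gave -5.96 for Cnn1, -5.58 for Myh11, -4.44 for Mylk and -1.15 for Hey1. For Mef2c it gave -0.72 in relapse and -1.22 in stable tumours against vehicle. Without vehicle 2, 6 and 7 the log2 differences of relapse from vehicle tumours became 0.0276 for Mef2a, 0.853 for Mef2c, 0.366 for Cnn1, 0.0388 for Hey1, 0.36 for Myh11 and 0.197 for Mylk, and those of stable from vehicle tumours 0.0949 for Mef2a and 0.358 for Mef2c. At equal Ckm they became 0.0357 for Mef2a and 0.358 for Mef2c in relapse, and 0.239 for Myog, 0.1 for Mef2a and 0.00687 for Mef2c in stable tumours; the slope of Mef2d became 0.0128. The other sign changes were all at equal Ckm or in a slope. With only the 2 groups, Myf6 was -0.05 (relapse against vehicle) and Mef2a 0.0279 (stable against vehicle). With the replicate block, Myog was 0.0147 and Myf6 -0.0364 (relapse against vehicle), Musk -0.0285 (stable against vehicle), Myog 0.211 (relapse against stable) and the slope of Mef2c -0.0265. With voom, Myog was 0.41 (relapse against vehicle), Myog 0.971 and Myf6 0.174 (relapse against stable) and the slope of Mef2c -0.0251. Summed counts gave 0.19 for Myog (stable against vehicle), and the title digit block 0.0836 for Myog (relapse against stable). The slope of Mef2d was 0.0199 with summed counts, 0.00512 with the title digit block and 0.00627 with upper quartile factors. Beyond fewer tumours or groups in the fit, the cause of these changes was not tested.

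Leaving out single tumours gave 1156 to 2671 genes called in relapse against vehicle tumours (2671 without stable 1, 1160 without vehicle 2, 1156 without vehicle 6) and 4 to 5 of the genes described. For stable against vehicle it gave 1470 to 3272 (1496 without vehicle 2, 1470 without vehicle 6) and 0 to 4, and for relapse against stable 0 to 4 (4 without relapse 4, 1 without stable 5). At equal Ckm the counts were 0 to 45, 27 to 487 and 0 to 1, and for slopes 93 to 118 and 2 to 3. Ranges at equal Ckm that held both signs were -0.409 to 0.539 for Myf6, -1.89 to 0.677 for Myog and -0.289 to 0.0719 for Mef2a in relapse against vehicle. They were -0.113 to 0.551 for Musk and -1.54 to 0.108 for Myog in stable against vehicle, and -0.0562 to 0.0863 for Mef2a, -0.622 to 0.0144 for Myf6 and -0.503 to 0.981 for Myog in relapse against stable. Slopes ran from -0.0488 to 0.0705 for Mef2c and from -0.0148 to 0.011 for Mef2d. Depth limits Myod1, Myf5, Pax7 and Myog, which most tumours held at under 10 counts.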
